A study of Mus musculus with 2 samples.

Results

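The collagens are the structural proteins of the extracellular matrix, and 43 of the 32285 genes measured here encode a collagen chain. They were taken as every gene symbol made of Col, a number, the letter a and a number, with Col17a1 left out. By type they were 11 fibrillar genes, 6 genes of the basement membrane network (type IV), 9 fibril-associated genes (FACIT), 6 beaded filament genes (type VI), 2 multiplexins, 1 anchoring fibril gene, 3 short-chain network genes, 3 transmembrane genes and 2 others. The values come from single-cell libraries of mouse dorsal skin at postnatal day 3. The control library has the genotype label Wildtype and the other library the genotype label miR-200b induced. Dox is named as the treatment of both. The labels give neither the induction construct, the cells that express it nor the number of animals pooled, and there was 1 library per group. Every difference below therefore compares these libraries only, and no test between the groups was possible.

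Collagen chains fold in threes into a triple helix in the endoplasmic reticulum, after hydroxylation of prolines and lysines. Dermal fibroblasts build fibrils of types I, III and V, on which FACIT chains sit. Type IV networks form the sheet under epithelia and around vessels, and type VII anchors the epidermal sheet to the dermis.

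The study induced miR-200b, a microRNA that pairs with target transcripts through its seed, so the seed and its matches in collagen genes are shown first. The mature sequence is from RefSeq, with the seed (bases 2 to 8) in capitals.

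miR-200b-3p: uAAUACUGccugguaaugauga

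The match to that seed, CAGTATT, was searched on the transcript strand of annotated 3′ untranslated regions (GRCm38). It was found in 7 of the 43 members (16.3%), against 13.35% of 20847 genes, and each of the 7 held 1 match. These were Col4a3, Col5a1, Col8a1, Col4a5, Col4a6, Col9a2 and Col11a1. The windows below, with the match in capitals, belong to 5 of them: 3 that stood at least 2-fold lower in the induced epithelium and 2 that did not.

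Col4a3, chr1:82721281-82721307, plus strand: gtcctcttatCAGTATTtaaaacaggt

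Col5a1, chr2:28037310-28037336, plus strand: gggggcgggaCAGTATTtgaagatcac

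Col8a1, chr16:57626559-57626585, minus strand: cgctaatgaaCAGTATTcattctttgt

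Col4a5, chrX:141688996-141689022, plus strand: tgtaagaagaCAGTATTtgcttagtct

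Col4a6, chrX:141166103-141166129, minus strand: gctgaaaggcCAGTATTtggtcctaga

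For comparison, miR-29b-3p (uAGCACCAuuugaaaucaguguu, seed in capitals) is a microRNA known for collagen targets. Its match TGGTGCT lay in 25 of the 43 members (58.1%), against 13.17% of all genes. A match is a description of the sequence and not a shown site.

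The control library held 9072 barcodes and 100409201 unique molecular identifiers (UMIs, each counting 1 captured transcript), and the induced library 9114 barcodes and 119705137 UMIs. After filtering, 4816 and 4890 cells were kept, and 10 barcode sequences occurred among the passing barcodes of both libraries. Cell classes were rebuilt from markers without any collagen, so every class name means "-like". Levels are CPM, the UMIs of a gene scaled to the class total of its library. Because UMIs come from transcript ends, they need no scaling by gene length. Intervals in brackets are 95% intervals for counting error only. Epithelial cells numbered 3972 and 4106, and fibroblast-like cells 505 and 276, with median depths of 9283 and 5810.5 UMIs in the latter. The 12 fibroblast markers, Dcn, Lum and Pdgfra among them, summed to 15728 CPM in the control and 10863 CPM in the induced library. In epithelial cells they summed to 65.8 and 34.8 CPM. The class was named by these markers, so their levels describe it and do not check the name.

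Fibroblast-like cells carried most collagen RNA. Collagens made up 7.54% of their control and 4.25% of their induced UMIs, compared with 0.0494% and 0.0485% in epithelial cells. In the control library 31 members had at least 50 UMIs over the 2 classes. Of these, 24 stood at least 2-fold higher in fibroblast-like cells (19.6% of all genes did) and 4 at least 2-fold lower (24.3% of all genes). In the induced library 21 of 28 stood higher (23.2% of all genes) and 1 lower (24.3%). The higher lists shared 20 members, or 83.3% of the control and 95.2% of the induced list, beside 71.8% and 59.2% for all genes. Over all classes with at least 20 cells in each library, 33 members reached 10 CPM somewhere. The other 10 (Col2a1, Col4a3, Col6a4, Col6a6, Col8a2, Col9a1, Col10a1, Col11a2, Col19a1 and Col20a1) did not. Some of them did in single clusters, such as Col4a3 at 68.5 CPM in control cells of an outer root sheath cluster.

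**Figure D1:**
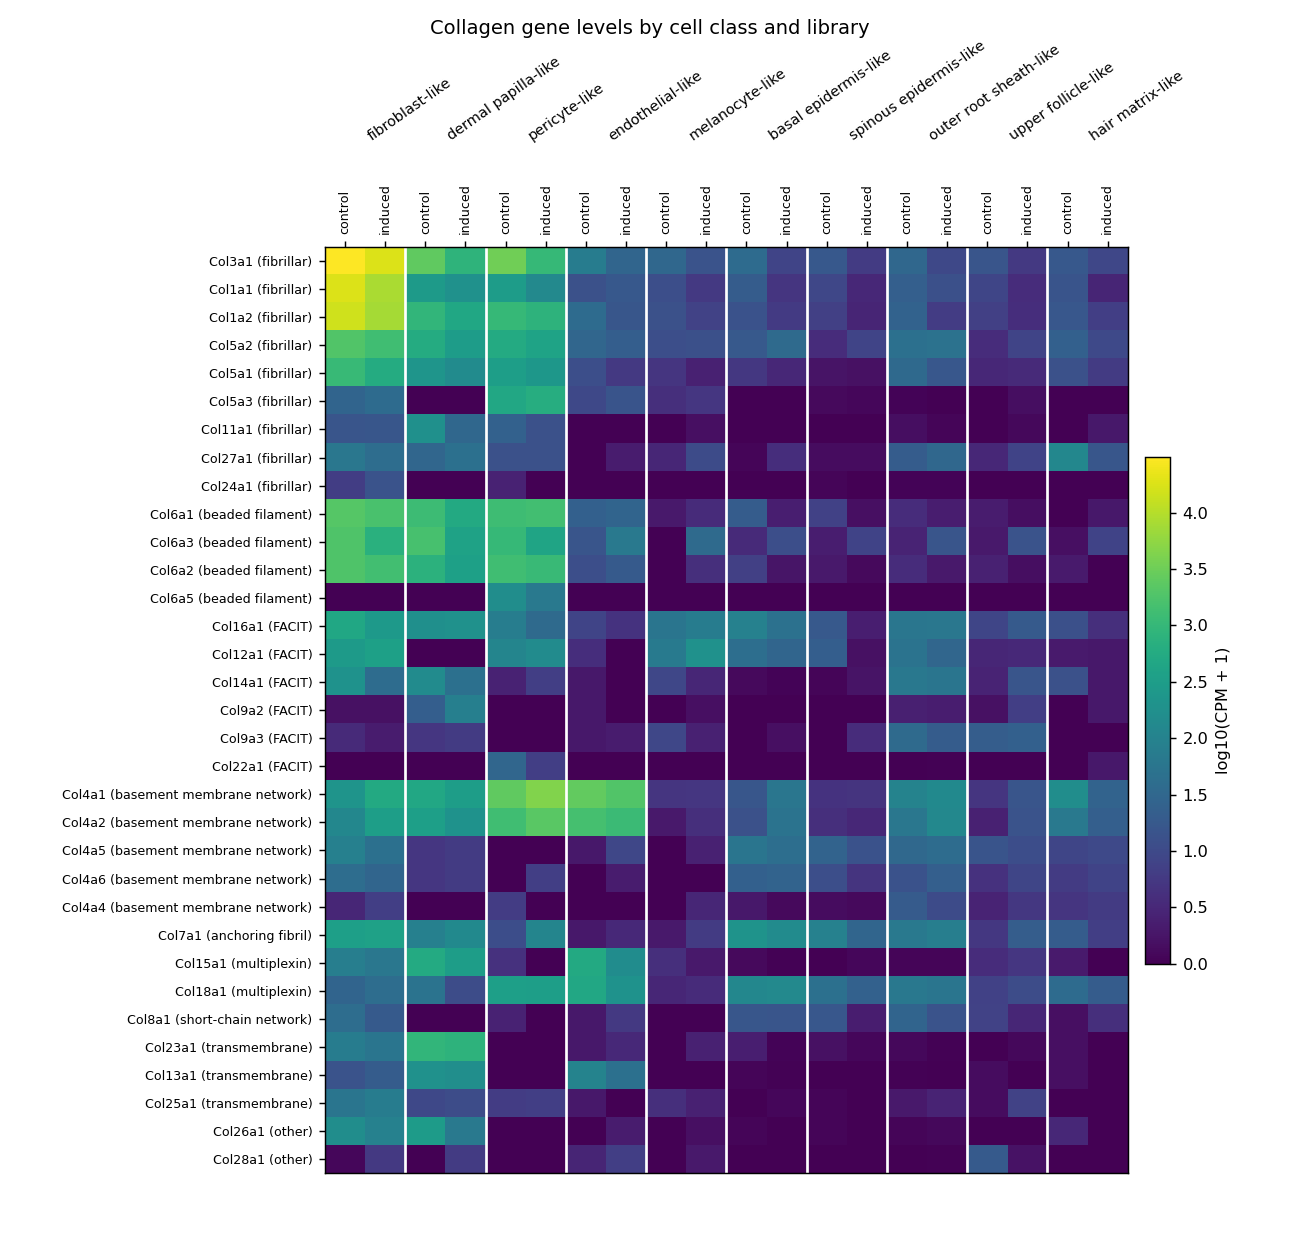
Heat map of log10(CPM + 1) for the 33 members that reached 10 CPM (rows, grouped by collagen type) in 10 cell classes, with a column for the control and one for the induced library. Col1a1, Col1a2, Col3a1, Col5a1, Col5a2, Col6a1, Col6a2 and Col6a3 are brightest in fibroblast-like cells, Col5a3 and Col6a5 in pericyte-like cells, Col4a1 and Col4a2 in pericyte-like and endothelial-like cells, and Col7a1 and Col18a1 are the brightest rows of basal epidermis.

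Among the fibrillar genes of fibroblast-like cells, Col3a1 had the highest level. Col3a1 (chromosome 1, 45311538 to 45349706), the chain of type III fibrils, stood at 31477 CPM in control and 18043 CPM in induced cells. Its log2 ratio, always given as induced over control, was -0.80 (-0.82 to -0.79). Col1a1 (chromosome 11, 94936224 to 94953042), which gives 2 of the 3 chains of type I collagen, stood at 17954 and 8562 CPM, a log2 ratio of -1.07 (-1.09 to -1.04). Its partner Col1a2 stood at 15046 and 7857 CPM, a log2 ratio of -0.94 (-0.96 to -0.91). All 3 major fibril chains were thus lower in the induced library. Col1a1 alone passed 2-fold, and it lay just inside (-0.99) when CPM was averaged over cells. With doublets kept, Col3a1 (-1.13), Col1a2 (-1.33) and Col5a1 (-1.27) passed it too. Clusters were rebuilt and named anew for that setting, and its fibroblast-like class held 488 and 208 cells. The type V chains, which set fibril diameter, were lower as well: Col5a2 at 1892 and 1313 CPM (log2 -0.53, -0.59 to -0.46) and Col5a1 at 1070 and 594 CPM (log2 -0.85, -0.95 to -0.75). Col24a1, a minor fibrillar chain, stood at 5.52 and 13.4 CPM on 27 and 23 UMIs, a log2 ratio of 1.28 with a wide interval (0.41 to 2.14).

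Counted over the family, 27 of 43 members had at least 50 UMIs in fibroblast-like cells of both libraries together. Of these, 3 stood at least 2-fold higher in the induced library (6.32% of all 9180 genes did) and 4 at least 2-fold lower (5.77% of all genes), while 20 lay within 2-fold (12.1% of all genes passed it in either direction). The median log2 ratio of the 27 was -0.47, beside 0.0037 over all genes. The 3 higher members were Col4a1, Col4a2 and Col24a1, and the 4 lower ones Col1a1, Col6a3, Col14a1 and Col8a1.

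**Figure D2:**
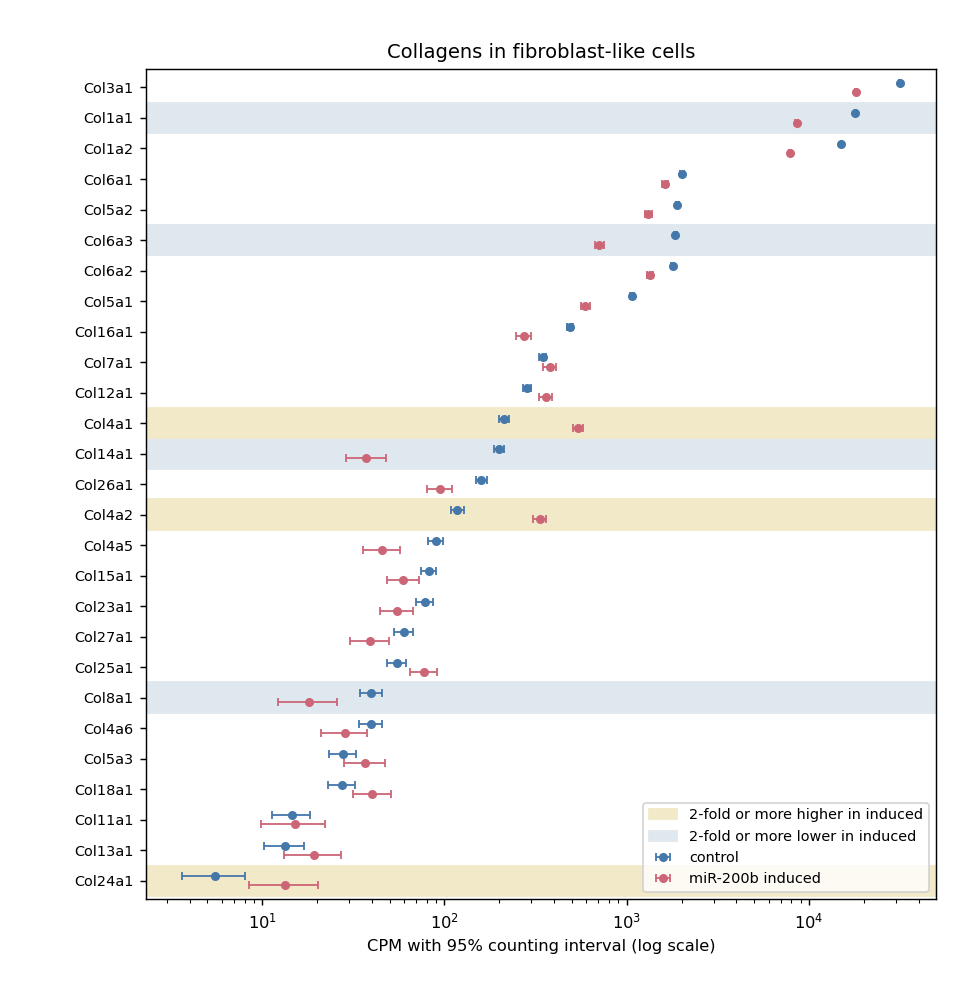
CPM (log axis, with 95% counting intervals) of the 27 members with at least 50 UMIs in fibroblast-like cells, with the control library in blue and the induced library in red. Col3a1, Col1a1 and Col1a2 lie to the right with the induced point lower, while shaded rows mark the 3 members at least 2-fold higher and the 4 at least 2-fold lower in the induced library.

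The fibroblast-like class was made up differently in the libraries. Clusters N2, N4 and N7 had at least 20 cells in both (161 and 51, 82 and 62, 51 and 33). Cluster N3 had 144 control and 5 induced cells and N9 had 64 and 12, while N10 had 0 and 61 and N11 had 3 and 52. Cluster N11 was led by Lpl and Fabp4, genes of fat cells, and the 11 adipocyte markers summed to 228 CPM in control and 4143 CPM in induced fibroblast-like cells, all 11 being higher in the induced library and 5 at 0 in the control. Markers of epithelial cells also differed, at 662 and 1611 CPM, with 12 of 13 higher in the induced library. Markers differed over the shared clusters N2, N4 and N7 as well, with the epithelial list at 702 and 1784 CPM (13 of 13 higher), the adipocyte list at 365 and 992 CPM (5 of 11 higher) and the smooth muscle list at 408 and 696 CPM (6 of 9 higher). The part of these markers in the ratios, pooled or within clusters, was not tested.

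Within each shared cluster the type I chains were also lower in the induced library. Col1a1 stood at 9785 and 4753 CPM in N2, at 34915 and 18173 CPM in N4, and at 21456 and 12416 CPM in N7, log2 ratios of -1.04, -0.94 and -0.79. Col1a2 had log2 ratios of -0.98, -0.89 and -0.62 there. Col3a1 varied more, at -0.95 in N2, -0.52 in N4 and -0.20 (-0.25 to -0.15) in N7. Per cell, collagens took a median of 4.48% of UMIs in control and 2.27% in induced cells of N2, 12.7% and 8.17% in N4, and 6.75% and 4.84% in N7. The quartile ranges overlapped between libraries in N2 and N7 and not in N4.

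**Figure D3:**
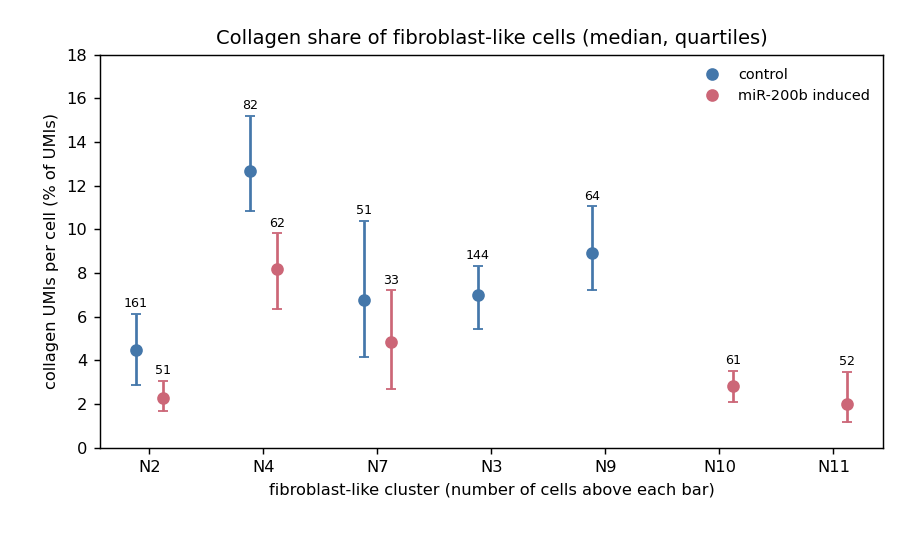
Median share of collagen UMIs per cell (%, bars from the lower to the upper quartile) in each fibroblast-like cluster with at least 20 cells of a library, control in blue and induced in red. In N2, N4 and N7, the clusters with at least 20 cells of both libraries, the induced median is the lower one, and the induced cells of N10 and N11 lie at 2.84% and 1.99%.

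Over N2, N4 and N7 pooled, 23 members could be counted and 3 passed 2-fold in either direction (8.82% of all genes did), Col23a1 being higher and Col14a1 and Col8a1 lower. Their median log2 ratio was -0.20, beside -0.042 over all genes. Col1a1 (log2 -0.58) and Col6a3 (log2 -0.96) lay within 2-fold there. The pool mixes the clusters in unlike shares: N4, the richest of them in collagen, gave 82 of 294 control and 62 of 146 induced cells. The pooled Col1a1 ratio lay closer to equal than that of any of the 3 clusters. The part of this mix in the pooled ratios was not tested. By cluster, N2 had 1 higher and 4 lower of 22 members (3.55% and 8.58% of all genes), N4 had 0 and 1 of 20 (4.99% and 3.46%), and N7 had 0 and 6 of 18 (6.56% and 9.73%).

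The furthest of the 27 from equal levels was Col14a1 (chromosome 15, 55307750 to 55520803), a FACIT chain on the surface of dermal fibrils. It stood at 198 CPM (186 to 211) in control and 37.3 CPM (28.7 to 47.6) in induced fibroblast-like cells, a log2 ratio of -2.41 (-2.80 to -2.04). In N2, N4 and N7 the log2 ratios were -2.28 (-3.61 to -1.21), -3.23 (-4.58 to -2.15) and -3.08 (-5.40 to -1.46), on 7, 7 and 3 induced UMIs. It was thus lower in each cluster that both libraries share. After each cell was thinned to 2000 UMIs, 25.4% (21.6 to 29.5) of control and 6.20% (3.51 to 10.0) of induced fibroblast-like cells had a Col14a1 UMI, and 59.6% and 9.06% did without thinning. In epithelial cells the level was 24.3 and 17.9 CPM, within 2-fold, but the log2 ratio was 1.36 in the epithelial clusters that both libraries share.

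The other 2 FACIT chains with at least 50 UMIs in fibroblast-like cells lay within 2-fold. Col16a1 stood at 487 and 272 CPM (log2 -0.84), and Col12a1, a chain bound to fibrils of stretched tissue, at 283 and 358 CPM (log2 0.34, 0.20 to 0.48, but -0.21 with doublets kept). Col8a1, a short-chain network gene, stood at 39.6 and 18.1 CPM on 194 and 31 UMIs, a log2 ratio of -1.13 (-1.73 to -0.58). In N2 it lay at -1.22 (-2.39 to -0.25) and in N7 at -4.48 (-9.81 to -1.94), the latter on 1 induced UMI. With doublets kept it lay at -0.47.

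Type VI collagen forms beaded filaments from 3 different chains. Col6a1 stood at 2009 and 1614 CPM in fibroblast-like cells (log2 -0.32, -0.38 to -0.25) and Col6a2 at 1789 and 1341 CPM (log2 -0.42, -0.48 to -0.35). Col6a3 (chromosome 1, 90765923 to 90843971) stood at 1849 and 705 CPM, a log2 ratio of -1.39 (-1.48 to -1.30). The chains thus differed by unequal amounts, and Col6a3 was uneven among clusters, at -1.10 in N2, -0.10 (-0.31 to 0.10) in N4 and -1.64 in N7. Col7a1, the anchoring fibril chain, stood at 345 and 378 CPM, levels that differed by no more than counting error (log2 -0.0031 to 0.26). Another 11 members lay within 2-fold in the pooled class, from -0.98 (Col4a5, 89.7 and 45.5 CPM) to 0.56 (Col18a1, 27.4 and 40.2 CPM), and 7 of them changed sign under another processing. Col18a1 lay at -1.09 under a stricter cell filter, Col5a3 (27.6 and 36.7 CPM) at -2.19 without clusters that raised 3 adipocyte markers, and Col23a1 (77.8 and 54.8 CPM) at 1.19 in the shared clusters.

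Col4a1 and Col4a2, partner chains of the common type IV network, were the members of fibroblast-like cells that stood higher in the induced library at high counts. Col4a1 stood at 212 and 542 CPM (log2 1.35, 1.22 to 1.48) and Col4a2 at 118 and 334 CPM (log2 between 1.33 and 1.67). By cluster, induced cells of N11, with the adipocyte markers, had 1353 CPM of Col4a1, and those of N10 had 328 CPM. The part of the cluster mix in the pooled difference was not tested. Over N2, N4 and N7 pooled, the log2 ratios were -0.20 for Col4a1 and 0.079 for Col4a2, so Col4a1 reversed there and Col4a2 was close to equal. Without clusters that raised 3 adipocyte markers they were 0.23 and 0.27, and with doublets kept 0.52 and 0.71. In N7 Col4a1 lay at -0.89 (-1.47 to -0.35).

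The pair stands head to head on chromosome 8, Col4a1 on the minus strand (11198423 to 11312826) and Col4a2 on the plus strand (11312805 to 11449287), with start sites 21 bases apart. Because both stood at least 2-fold higher in the pooled class, the Col4a1 promoter window of RefSeq (GRCm38.p6, 250 bases before to 50 after the start) is printed in its own direction. Capitals mark CCAAT and GGGCGG on either strand, read here as ATTGG and CCGCCC.

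Col4a1 promoter, chr8:11312777-11313076, minus strand: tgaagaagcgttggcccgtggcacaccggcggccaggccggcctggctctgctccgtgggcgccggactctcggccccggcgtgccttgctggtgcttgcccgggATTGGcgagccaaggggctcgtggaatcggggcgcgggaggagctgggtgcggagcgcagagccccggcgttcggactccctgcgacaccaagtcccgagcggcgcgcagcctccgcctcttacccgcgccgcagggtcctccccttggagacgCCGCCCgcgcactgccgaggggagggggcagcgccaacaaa

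Of 37 such windows found for 34 members, 32.4% held CCAAT and 62.2% held GGGCGG, against 37.4% and 35.7% of 32851 windows of all genes.

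Some opposite-strand genes overlap the ends of members, among them Col4a1, Col4a3, Col9a3 and Col18a1, and the strand setting of the counting is not given in the sources used here. UMIs of Col4a2 per UMI of Col4a1 were 0.556 (0.501 to 0.616) in control and 0.617 (0.555 to 0.685) in induced fibroblast-like cells. Endothelial-like cells had 0.578 and 0.624, and pericyte-like cells 0.533 and 0.489. In the induced epithelium the ratio was 0.907 (0.874 to 0.942) against 0.559 (0.531 to 0.589) in the control. Outer root sheath cells gave 0.932 and 0.569, with intervals that did not overlap, while those of basal epidermis did.

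**Figure D4:**
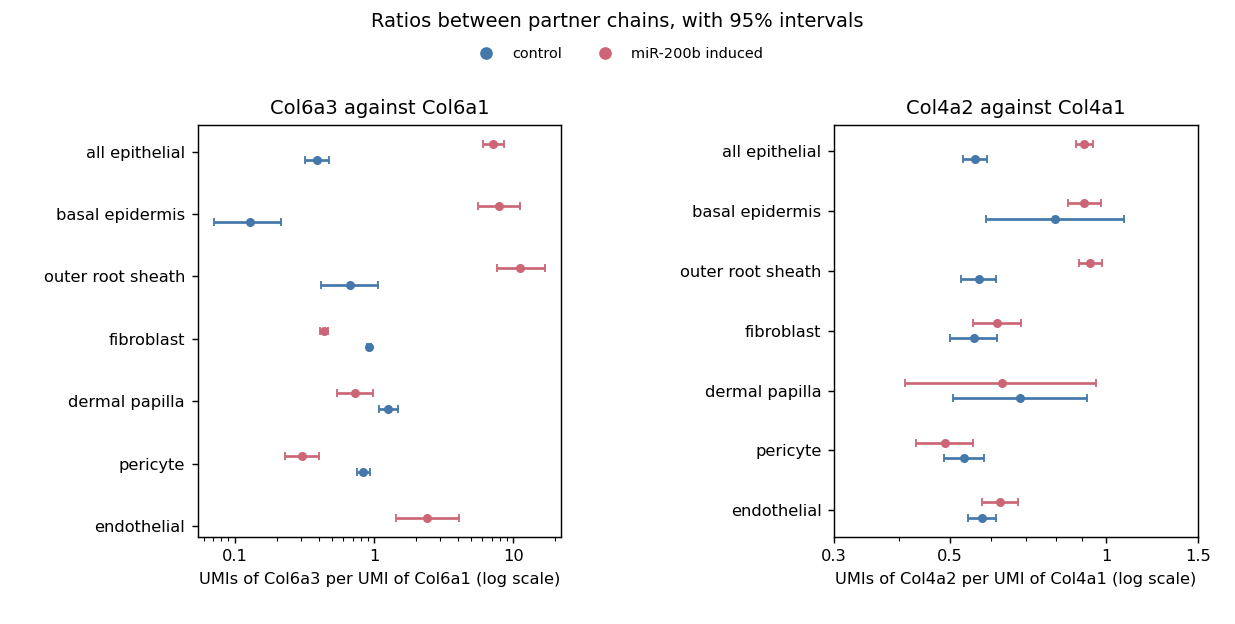
UMIs of Col6a3 per UMI of Col6a1 (left) and of Col4a2 per UMI of Col4a1 (right) by cell class, on log axes with 95% counting intervals, control in blue and induced in red. The 3 induced epithelial rows plotted (all epithelial, basal epidermis and outer root sheath) lie at 7.16 to 11.1 Col6a3 per Col6a1, to the right of the control points plotted, while induced fibroblast-like and pericyte-like cells lie to the left of their controls.

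Some enzymes and chaperones that fold collagen also stood lower in induced fibroblast-like cells. Of 22 genes of triple helix folding and hydroxylation, 19 could be counted, 2 at least 2-fold higher (6.32% of all genes) and 6 at least 2-fold lower (5.77%), with a median log2 ratio of -0.79 beside 0.0037 over all genes. Serpinh1, the collagen chaperone HSP47, stood at 3201 and 923 CPM (log2 -1.79, -1.87 to -1.72), and at -1.33, -1.26 and -1.59 in N2, N4 and N7. P3h1, a prolyl 3-hydroxylase, stood at 181 and 63.5 CPM (log2 -1.51, -1.81 to -1.23), and at -0.98, -1.05 and -1.05 in these clusters. Fkbp10, a folding enzyme, stood at 299 and 122 CPM. The 2 higher genes were Plod2, a lysyl hydroxylase, at 9.40 and 19.2 CPM, and Tmem38b, an ion channel of the endoplasmic reticulum, at 12.1 and 28.0 CPM. Over the shared clusters together, 2 of 18 passed 2-fold, 1 higher and 1 lower (8.82% of all genes in either direction), with a median of -0.50 beside -0.042 over all genes.

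The other pathway lists of fibroblast-like cells are small, and 12.1% of all genes passed 2-fold there in either direction. None of the 8 counted genes of propeptide processing and cross-linking and none of the 6 of turnover passed 2-fold in either direction. Among 6 counted receptors, Itga1, a collagen-binding integrin, stood at 6.33 and 29.1 CPM, and Mrc2, which takes up collagen, at 112 and 46.6 CPM. Of 10 counted basement membrane partners, Nid1 (94.8 and 262 CPM) and the laminin chain Lama2 (107 and 242 CPM) stood higher and Nid2 (51.3 and 25.1 CPM) lower.

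In epithelial cells the chains of types I, III and VI were scarce. Col1a1 stood at 16 CPM in control and 6.87 CPM in induced cells, 0.0890% and 0.0802% of the fibroblast-like level. Col1a2 lay at 0.112% and 0.0614%, Col3a1 at 0.0841% and 0.0493%, Col6a1 at 0.237% and 0.0921% and Col6a2 at 0.114% and 0.0645%. Melanocyte-like cells, taken for comparison, had 31.1 and 13.3 CPM of Col3a1, beside 26.5 and 8.89 CPM in epithelial cells. Their median depths were 10158 and 7522.5 UMIs against 16094 and 21126. After thinning, 6.14% (5.41 to 6.94) of control and 1.74% (1.35 to 2.21) of induced epithelial cells had a Col3a1 UMI, and 32.3% and 14% did without thinning. The other chains in melanocyte-like cells stood at 11.1 and 4.61 CPM (Col1a1), 12.1 and 6.66 CPM (Col1a2), 1.00 and 2.56 CPM (Col6a1) and 0 and 3.07 CPM (Col6a2). Epithelial clusters of the control were uneven, with Col6a1 from 0 to 19.3 CPM, highest in the basal cluster E4, and Col1a1 from 4.41 to 76.6 CPM, highest in the outer root sheath cluster E30. In the induced library each of the 5 chains was highest in the unnamed low-depth cluster E18, where Col3a1 stood at 465 CPM. The part of free RNA in these levels was not tested.

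Other members reached higher shares of the fibroblast-like level. Col7a1 reached 18.6% and 22.3% of it, Col4a5 29.8% and 64.1%, and Col18a1, the multiplexin of epithelial basement membranes, 184% and 171%. Col8a1, a short-chain network gene, lay at 52.6% and 51.8%. Col9a3, a FACIT chain, lay at 737% and 697%, on 12 control and 2 induced fibroblast UMIs. Col4a3, a chain of the specialised type IV network, had 0 UMIs in fibroblast-like cells of both libraries, which allows 0.613 and 1.75 CPM (3 UMIs), beside 1.64 and 0.407 CPM in epithelial cells.

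Between the libraries, 30 of 43 members could be counted in epithelial cells. Of these, 1 stood at least 2-fold higher in the induced library (9.99% of 14432 genes did) and 12 at least 2-fold lower (9.16% of all genes; 19.2% in either direction), with a median log2 ratio of -0.43 beside -0.072 over all genes. Of the 12, Col1a1, Col1a2, Col3a1, Col6a1 and Col6a2 were the scarce chains described above, and with CPM averaged over cells each lay within 2-fold (from -0.89 to -0.041). The other 7 were Col5a1 (14.4 and 5.55 CPM), Col8a1 (20.8 and 9.36 CPM), Col9a3 (18.1 and 8.13 CPM, but higher in the clusters that both libraries share), Col4a3, Col8a2, Col23a1 and Col28a1, and the last 4 lay under 2 CPM in both libraries. Of the 6 counted members with a miR-200b seed match, 3 stood at least 2-fold lower and none higher. Of the 24 without one, 9 stood lower and 1 higher. In fibroblast-like cells, 1 of 5 counted members with a match stood lower and none higher (5.77% and 6.32% of all genes). There, 3 of 22 without one stood lower and 3 higher, so neither split was read further.

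Of the basement membrane zone genes with at least 10 CPM in the epithelium, each lay within 2-fold and was higher in the pooled induced cells. The rarer type IV chains Col4a3 (1.64 and 0.407 CPM) and Col4a4 (4.76 and 2.77 CPM) were lower. In the control, Col4a3 was highest in cluster E26 (68.5 CPM) and Col4a4 in E30 (127 CPM). These outer root sheath clusters had 119 and 99 control but 18 and 16 induced cells. Col7a1 stood at 64.3 and 84.1 CPM (log2 0.39, 0.34 to 0.44), Col18a1 at 50.4 and 68.9 CPM (0.45, 0.39 to 0.51) and Col4a1 at 51.5 and 59.6 CPM (0.21, 0.15 to 0.27). Col4a2 stood at 28.8 and 54.0 CPM, the furthest of them with a log2 ratio of 0.91 (0.84 to 0.98). These pooled directions did not hold in each layer: Col7a1 and Col4a5 were lower in induced basal and spinous cells, and Col18a1 in induced spinous cells. The minor type IV chains Col4a5 (26.7 and 29.2 CPM) and Col4a6 (10.8 and 17.3 CPM) followed. Col5a2 stood at 19.8 and 28.0 CPM, and so opposite to Col5a1. The remaining members with at least 10 CPM were slightly lower: Col16a1 at 43.7 and 32.6 CPM, Col12a1 at 28.2 and 19.3 CPM and Col27a1 at 11.9 and 10.2 CPM.

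**Figure D5:**
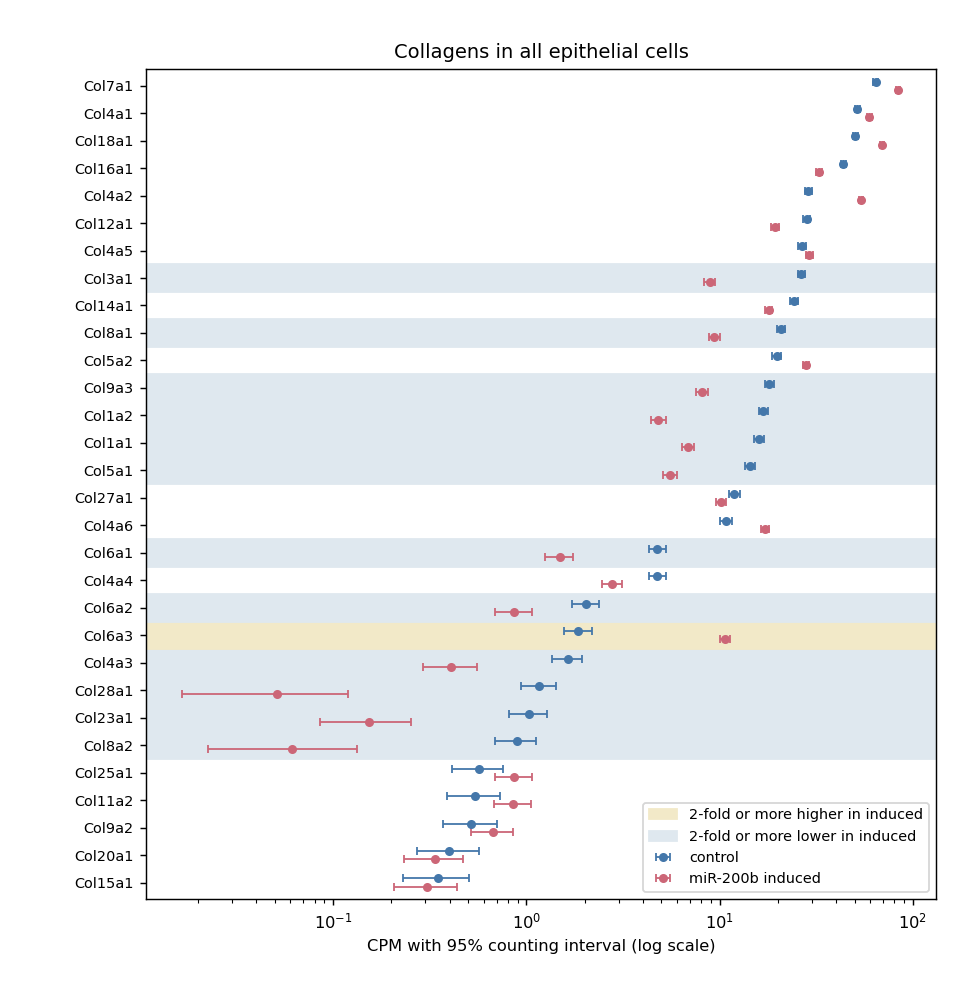
CPM (log axis, with 95% counting intervals) of the 30 members with at least 50 UMIs in all epithelial cells, control in blue and induced in red. Col6a3 is the only row shaded as higher in the induced library, and 12 rows are shaded as lower.

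Most epithelial clusters came from 1 library, which limits these pooled ratios. Only clusters E23 and E25 (upper follicle) and E29 (hair matrix) had at least 20 cells of both. In E29, Col4a1 stood at 157 and 25.7 CPM, Col4a2 at 65.1 and 21.7 CPM and Col27a1 at 122 and 14.8 CPM, all lower in the induced library, and 4 of 5 counted members were at least 2-fold lower (7.65% of all genes) and none higher (5.70%). In E23, 3 of 7 counted members stood at least 2-fold higher (5.07% of all genes) and 2 lower (5.56%). Col7a1 there stood at 1.57 and 19.8 CPM, and Col28a1 at 23.6 and 0.902 CPM on 90 and 3 UMIs (log2 -7.01 to -3.12). Over the 3 clusters pooled, Col4a1 lay at a log2 ratio of -1.42, Col4a2 at -0.30, Col18a1 at -0.24, Col4a5 at -0.25, Col7a1 at 1.08 and Col16a1 at 0.75. The directions of the whole epithelium thus turned there for these genes other than Col7a1, and also for Col14a1 (1.36), Col9a3 (0.30) and Col5a2 (-0.049). In E25, 1 member could be counted, Col16a1 at 29.5 and 43.8 CPM (4.34% and 5.69% of all genes were higher and lower there).

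Col6a3 was the member that stood apart in the epithelium. It stood at 1.85 CPM in control and 10.6 CPM in induced cells, a log2 ratio of 2.52 (2.27 to 2.78), while Col6a1 stood at 4.76 and 1.49 CPM and Col6a2 at 2.03 and 0.865 CPM. Over the 22 epithelial clusters with at least 20 control cells its level ran from 0.262 to 3.77 CPM, and over the 21 with at least 20 induced cells from 5.0 to 67.7 CPM, so these ranges did not overlap. The highest induced value was in E18, an unnamed cluster of 210 induced cells with a median of 1065.5 UMIs over both libraries, and without E18 the log2 ratio was 2.53. Melanocyte-like cells had 0 control UMIs of Col6a3, which allows up to 3.01 CPM (3 UMIs), and 67 induced UMIs, or 34.3 CPM. Endothelial-like cells had 14 and 64.1 CPM. Among classes with at least 20 cells in both libraries, Col6a3 stood lower in fibroblast-like, dermal papilla-like and pericyte-like cells and higher in the others. Classes under that minimum went either way, such as granular epidermis at 13.6 CPM in 9 control and 5.80 CPM in 135 induced cells.

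UMIs of Col6a3 per UMI of Col6a1 put this on 1 scale. The ratio was 0.389 (0.319 to 0.473) in control and 7.16 (6.02 to 8.58) in induced epithelial cells, and 0.920 (0.894 to 0.947) and 0.437 (0.408 to 0.468) in fibroblast-like cells. Basal epidermis gave 0.128 and 7.85, and outer root sheath 0.667 and 11.1. In each library the epithelial and fibroblast-like intervals did not overlap, with the epithelial ratio below in the control and above in the induced library. After thinning, 0.458% (0.272 to 0.724) of control and 2.37% (1.91 to 2.90) of induced epithelial cells had a Col6a3 UMI, and 2.74% and 19.3% did without thinning. Whether all UMIs counted as Col6a3 come from that gene cannot be checked from these counts.

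Within the epithelium different members led in different layers. In basal epidermis Col7a1 (201 and 148 CPM), Col18a1 (118 and 128 CPM) and Col16a1 (94.9 and 47.2 CPM) led. Of 18 counted members there, 5 stood at least 2-fold higher in the induced library (8.96% of all genes) and 7 lower (5.82%), and Col4a1 (15.2 and 56.9 CPM) and Col4a2 (12.1 and 51.7 CPM) were among the higher ones. In outer root sheath cells, the outer layer of the hair follicle, Col4a1 (103 and 134 CPM), Col4a2 (58.6 and 125 CPM) and Col7a1 (63.6 and 82.1 CPM) led. Of 25 counted members there, 2 stood at least 2-fold higher, Col4a2 and Col6a3 (9.12% of all genes), and 8 lower (6.45%). Basal cells numbered 339 and 1148 and came mostly from clusters of 1 library each. Spinous cells had Col7a1 (94.9 and 28.3 CPM), Col18a1 (44.4 and 24.3 CPM) and Col4a5 (26.3 and 12.6 CPM), hair matrix Col4a1, Col27a1 and Col4a2, and upper follicle Col9a3 (20.6 and 23.0 CPM), Col16a1 (7.74 and 17.5 CPM) and Col7a1 (4.37 and 20.2 CPM). The chains Col4a3 and Col4a4, encoded head to head with start sites 72 bases apart, were found mostly in outer root sheath, at 6.63 and 1.44 CPM and at 18.6 and 9.58 CPM.

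In the epithelium 20 genes of triple helix folding could be counted, 1 at least 2-fold higher (9.99% of all genes) and 3 lower (9.16%), shares near those of all genes. The lists that follow are read against the same shares. P4ha2, a prolyl 4-hydroxylase subunit, stood at 6.62 and 14.9 CPM, while Crtap, the partner of P3h1, stood at 23.1 and 5.45 CPM, Sec23a, a coat protein of export vesicles, at 14.3 and 5.78 CPM, and Serpinh1 at 140 and 67.7 CPM. Of 6 counted turnover genes, the metalloproteinase inhibitor Timp1 (1.26 and 10.9 CPM) and the gelatinase Mmp9 (1.65 and 3.45 CPM) stood higher and Timp2 (31.6 and 11.1 CPM) lower. Of 6 counted processing genes, 3 stood lower (Loxl2, Adamts14 and Adamts2) and none higher, and 6 counted receptors lay within 2-fold. Of 14 counted basement membrane partners, Lama2 stood higher and Nid2, Lama4 and Nid1 lower, each under 5 CPM.

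Other dermal classes were smaller and had their own leading members. Pericyte-like cells (42 and 35 cells) had Col4a1 at 2483 and 4478 CPM, Col3a1 at 3331 and 1029 CPM and Col4a2 at 1323 and 2189 CPM. Of the low members, Col6a5 (160 and 65.1 CPM) and Col22a1 (29.5 and 5.92 CPM) had their highest level there. Endothelial-like cells (61 and 68 cells) had Col4a1 at 2575 and 1901 CPM, Col4a2 at 1488 and 1187 CPM and Col18a1 at 505 and 192 CPM, close to Col15a1 at 539 and 154 CPM. The multiplexins Col15a1 and Col18a1 were thus both lower in induced endothelial-like cells, and Col4a1 stood higher in induced pericytes and lower in induced endothelial cells.

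Dermal papilla-like cells, 38 control and 82 induced, came mostly from different clusters (N16 in the control, N6 in the induced library). Their median depths were 6009.5 and 1753.5 UMIs. Their leading members were Col3a1 at 2490 and 830 CPM, Col6a3 at 1544 and 397 CPM and Col6a1 at 1217 and 543 CPM. Col23a1, a transmembrane collagen, reached its highest level there, 899 (782 to 1029) and 795 CPM (676 to 929). Melanocyte-like cells had Col12a1 at 66.3 and 189 CPM, Col16a1 at 55.3 and 76.4 CPM and Col3a1 as above. Col28a1, found in nerve sheaths, had 249 CPM in 30 control and 341 CPM in 16 induced Schwann-like cells, under the minimum of 20 cells.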

How the data were processed

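The authors deposited raw UMI counts per gene and barcode for both libraries, made with Cell Ranger 6.0.0 on mm10, per the submitters' processing notes. Per the labels' protocols, epidermal and dermal suspensions were mixed before loading on a 10x 3′ platform, so shares of cells reflect that mix. The collagens, gene lists and markers were chosen with earlier results of these data known. Barcodes were kept with at least 1000 UMIs, 500 genes and under 15% mitochondrial UMIs. Scanpy 1.11.5 scrublet marked 3 and 2 cells, so the 7% with the highest scores were removed. Cells were clustered (2000 variable genes without collagens and pathway genes, 30 components, 15 neighbours, leidenalg 0.10.2). Clusters under 3000 keratin CPM were non-epithelial. A name needed 3 markers raised 1.5-fold in 25% of cells, and these thresholds were set with the data known. UMIs were summed per class and library. Intervals are exact Poisson, conditional binomial (ratios) and Clopper-Pearson (shares, after thinning to 2000 UMIs, which left out 54 and 352 cells). A gene was counted at 50 UMIs or more and called at 2-fold, a rule of size, with both libraries compared by value and not by test. Named members were those of at least 10 CPM in a class of 20 cells per library: in fibroblast-like cells the 10 highest and all past 2-fold, in epithelial cells all, and in other classes the 3 highest. Further members and the pathway genes beyond 3 per direction were named after their values were seen. The ratio step was checked on simulated counts. Alternatives changed the cell filter, doublet removal, clustering, UMI minimum, fold, scaling and the clusters used.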

Additional observations from a re-analysis of the deposited data

Results flagged for a closer look

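Col6a3 went opposite ways in 2 cell classes between the same libraries. Its log2 ratio of induced over control was -1.39 in fibroblast-like cells and 2.52 in epithelial cells. Whether the ratios differ beyond animal-to-animal spread was not tested, as there was 1 library per group.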

How the results depend on the processing

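No paired analysis was possible because each group had 1 library, and with 1 library per group leaving out a replicate was not possible either. In fibroblast-like cells 7 members passed 2-fold. That was 7 of 27, beside 12.1% of all genes. The count was 15 of 37 with no minimum of UMIs (35.5% of all genes), 14 of 27 at 1.5-fold (30.5%), 3 of 27 with the mean of CPM over cells (12.5%), 3 of 26 without clusters that raised 3 adipocyte markers (10.5%) and 3 of 23 in clusters with 20 cells in both libraries (8.82%). In the last of these Col4a1 reversed, to a log2 ratio of -0.20. With doublets kept, 0 of 25 stood higher and 6 lower (6.96% and 5.33% of all genes). The rebuilt class there held 488 and 208 cells, beside 505 and 276 in the main setting, so a different set of cells was compared. With the class limited to cells of 4000 to 12000 UMIs, chosen after seeing the data, 2 of 26 stood higher and 3 lower (4.83% and 4.12% of all genes). In epithelial cells the count of 13 stayed within 1.5 times in all 11 alternatives, over 16 to 41 counted members. The share of all genes ran from 11.7% to 36.5%. Finer clustering of non-epithelial cells could not change this count, and centring genes within library left the same 3972 and 4106 cells. A like count does not say that the members stayed: the mean of CPM over cells gave 4 of 30 higher and 6 lower (10.9% and 7.30% of all genes). In clusters with 20 cells of both libraries, chosen after seeing the data, Col9a3 reversed to 0.30. The cause of these changes was not tested, apart from the fewer cells that some settings use. The counts of members higher in fibroblast-like than in epithelial cells, 24 and 21, stayed within 1.5 times. Col6a3 kept its sign in both classes in every alternative run, from 2.11 to 3.76 in epithelial cells and from -1.56 to -0.96 in fibroblast-like cells, and Col14a1 ran from -3.69 to -2.17 in fibroblast-like cells. Of 460 alternative log2 ratios of single members, 326 stayed within the counting interval and 30 changed sign. Some of the 326 equal the main value by the setting itself, such as epithelial ratios under finer clustering of non-epithelial cells. Depth limits members under 50 UMIs.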
